A study of Mus musculus with 6 samples.

Results

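The ISG15 system of mouse spleen was followed through its modifier Isg15, the genes that attach it (Uba7, Ube2l6 and Herc6) and the gene that takes it off again (Usp18). These 5 genes were named because the signals of Isg15 and Usp18 had been seen to be high at 5 and low at 10 µmol/kg cadmium chloride, and every array probe annotated to one of them was taken. This gave 6 probes of 4 genes among the 45281 probes on the array: 1 for Isg15, 1 for Uba7, 2 for Usp18 and 2 for Ube2l6. Herc6 was not measured by any probe used here. All 4 measured genes were detected on every array and entered the fit over 13559 genes and unnamed probes, each gene represented by its probe of higher mean signal.

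Spleens came from ICR mice, an outbred stock, aged 28 days. They had received 1 subcutaneous injection 24 h earlier, of saline, of cadmium chloride at 5 µmol/kg or of cadmium chloride at 10 µmol/kg, in 200 µL. Each of the 3 groups was measured on 2 whole-genome bead arrays of total RNA, 6 in all. Groups were of 7 to 8 animals, per the labels, but how many of them each array stands for is not stated, so the errors measure only the spread between arrays, which may be technical.

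ISG15 is a small protein related to ubiquitin that interferons induce and that cells join to lysines of other proteins. The chain runs from an activating enzyme (Uba7) through a conjugating enzyme (Ube2l6) to a ligase, which in mouse is Herc6. Usp18 is the protease that removes ISG15 from its targets, and it also binds the type I interferon receptor and damps its signal. Free ISG15 is secreted and can act on lymphocytes through the integrin LFA-1. The interferon-stimulated response element (ISRE), bound by interferon regulatory factors, is the usual control site of such genes.

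The 250 bases upstream of the annotated start were searched for an ISRE core, written GAAANNGAAA or, on the other strand, TTTCNNTTTC. Promoters were in the RefSeq table of GRCm38.p6 for Isg15, Uba7, Ube2l6 and Herc6. Of these 4, only that of Isg15 held the core, with 3 overlapping matches from 78 to 57 bases before the start. Of all 32851 promoter windows, 2.98% held at least 1 match. Of the 51 windows of 40 other interferon-induced genes measured on the arrays, 27.5% did. Among them was that of Oas1g, whose signals, by its brightest probe, were among the most like those of Isg15 over the same arrays. It is 1 example, and a link between the core and the signals was not tested. A match is only a run of letters, and its absence says nothing about a factor. The sequences are shown to set the Isg15 promoter beside one more with the core and beside those of its conjugating and activating enzymes, with the matches in capitals. They lie at chr4:156200819-156201068 (minus strand) for Isg15, at chr5:120887614-120887863 (minus strand) for Oas1g, at chr2:84798578-84798827 (plus strand) for Ube2l6 and at chr9:107975317-107975566 (plus strand) for Uba7.
Isg15: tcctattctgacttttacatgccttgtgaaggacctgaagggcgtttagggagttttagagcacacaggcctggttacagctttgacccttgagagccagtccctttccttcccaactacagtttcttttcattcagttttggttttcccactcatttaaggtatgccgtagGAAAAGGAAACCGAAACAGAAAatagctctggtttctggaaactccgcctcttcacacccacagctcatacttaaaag
Oas1g: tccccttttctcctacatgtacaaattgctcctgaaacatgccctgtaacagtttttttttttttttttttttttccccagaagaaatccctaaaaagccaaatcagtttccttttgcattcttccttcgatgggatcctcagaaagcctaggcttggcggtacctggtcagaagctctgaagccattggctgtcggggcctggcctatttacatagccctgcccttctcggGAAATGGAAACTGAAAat
Ube2l6: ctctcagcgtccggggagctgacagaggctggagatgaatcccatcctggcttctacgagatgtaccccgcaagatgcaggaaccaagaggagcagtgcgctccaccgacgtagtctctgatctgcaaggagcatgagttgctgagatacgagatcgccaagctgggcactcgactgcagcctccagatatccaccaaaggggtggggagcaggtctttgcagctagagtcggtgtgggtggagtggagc
Uba7: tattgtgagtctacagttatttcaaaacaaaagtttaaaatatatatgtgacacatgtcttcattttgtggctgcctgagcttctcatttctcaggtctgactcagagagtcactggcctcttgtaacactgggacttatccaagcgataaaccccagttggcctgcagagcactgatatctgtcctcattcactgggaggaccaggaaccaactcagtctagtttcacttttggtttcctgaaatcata

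The arrays differed among themselves in genes of pancreatic acinar cells. The mean log2 level of 26 measured markers was 4.78 and 12.81 in saline, 12.42 and 11.45 at 5 µmol/kg, and 4.99 and 12.18 at 10 µmol/kg. The first saline array detected 7 of the 26 and the first at 10 µmol/kg detected 12, whereas each of the other 4 arrays detected all 26. Spleen markers such as the red cell anion exchanger Slc4a1 and the T cell receptor chain Cd3e were detected on all 6 arrays. The follicular receptor Cr2 was detected on the saline arrays only. Between 16265 and 18561 probes were detected on each array. The part of these markers in the results was not tested, and members' differences between arrays of like acinar signal are given beside them for either dose against saline.

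Isg15, the modifier itself, had its 2 highest signals at the lower dose. Its deposited signal, a linear intensity, was 145 and 243 on the saline arrays, 503 and 714 at 5 µmol/kg, and 233 and 204 at 10 µmol/kg. Both arrays at 5 µmol/kg lay above the other 4, which overlapped each other. On the log2 scale the means were 7.67 ± 0.49 in saline, 9.26 ± 0.35 at 5 µmol/kg and 7.87 ± 0.13 at 10 µmol/kg (SD, n = 2 each). The difference was 1.59 ± 0.32 (SE) for 5 µmol/kg minus saline, or 3.02-fold, and −1.40 ± 0.32 for 10 minus 5 µmol/kg. Both are descriptions, because the genes were named for them. Against the saline array that shared the acinar signal, the difference at 5 µmol/kg was 1.25.

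Usp18, the protease that removes ISG15, was lower at 10 than at 5 µmol/kg by both of its probes, and at 5 µmol/kg it overlapped saline by the brighter one. Its probe of higher signal read 102 and 232 on the saline arrays, 230 and 462 at 5 µmol/kg, and 103 and 91.0 at 10 µmol/kg. Array 1 at 5 µmol/kg and saline array 2 were nearly equal, so these groups overlapped, while both arrays at 10 µmol/kg lay below both at 5 µmol/kg. The other probe read 12.0 and 13.0 on the saline arrays, 49.8 and 87.8 at 5 µmol/kg, and 14 and 15.5 at 10 µmol/kg. Here both arrays at 5 µmol/kg stood above all others, which were close to the lowest detected signals of 7.56 to 10.63 on the 6 arrays. The log2 difference was 1.01 ± 0.45 by the first probe and 1.52 ± 0.29 by the second for 5 µmol/kg minus saline. For 10 minus 5 µmol/kg it was −1.60 ± 0.45 and −1.42 ± 0.29. These 4 values describe what the choice of genes rested on. Without saline array 1, which leaves saline and 5 µmol/kg with arrays of like acinar signal, the first probe's difference at 5 µmol/kg was 0.47, without saline array 2 it was 1.54 and without array 2 at 5 µmol/kg it was 0.53.

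**Figure D1:**
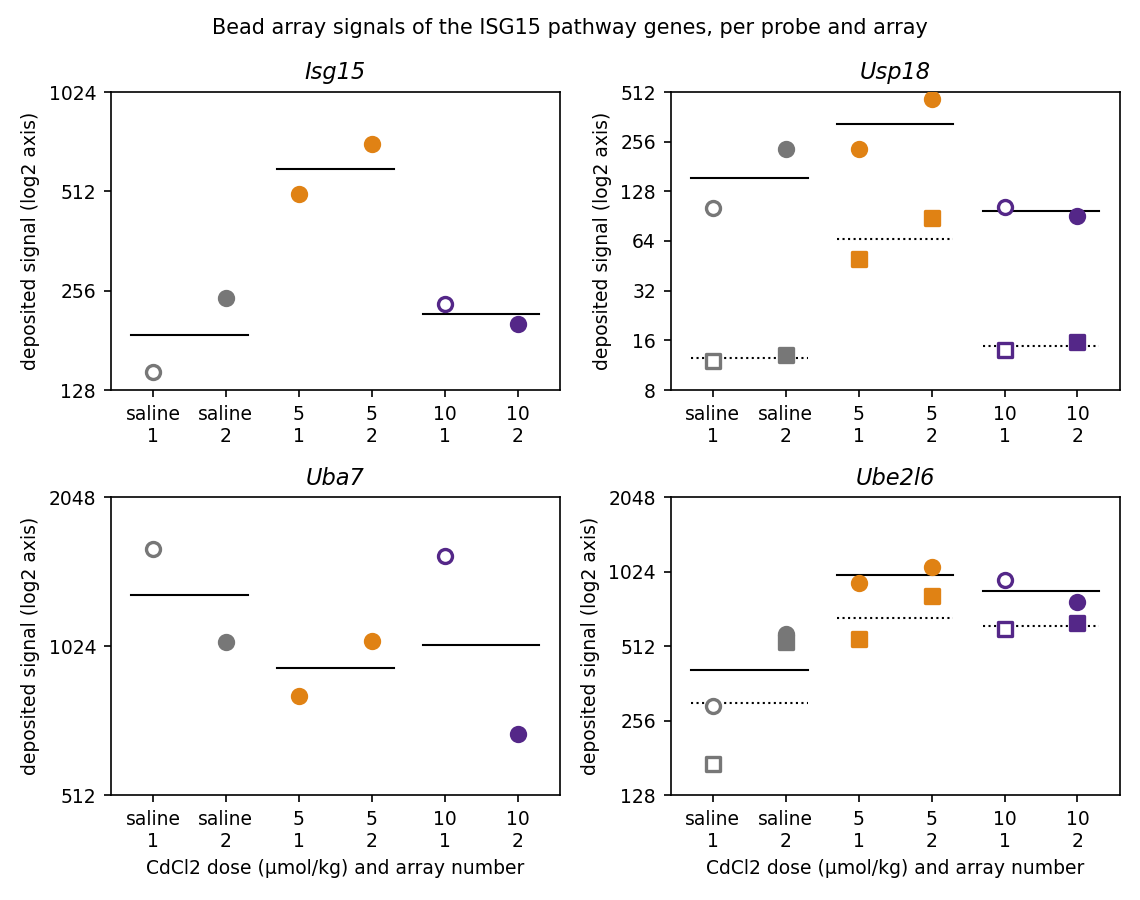
Deposited signal of each probe (log2 axis) on each of the 6 arrays, grouped by dose; circles are the probe that stands for the gene, squares the other probe, open symbols the 2 arrays with little acinar signal, and lines the geometric mean of each pair (dotted for squares). Isg15 reads 503 and 714 at 5 µmol/kg and at most 243 elsewhere, Ube2l6 is lowest on the saline arrays by both probes, and Uba7 is highest on the 2 open-symbol arrays.

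Ube2l6, the conjugating enzyme, was above saline at both doses. The probe of higher signal read 294 and 576 on the saline arrays, 923 and 1069 at 5 µmol/kg, and 950 and 776 at 10 µmol/kg. The other probe read 172 and 535 in saline, 549 and 816 at 5 µmol/kg, and 603 and 636 at 10 µmol/kg. By both probes all 4 cadmium arrays lay above both saline arrays, and the doses overlapped each other. By the other probe this was nearly a tie, 549 against 535. The share of all genes with this order was not counted. The log2 difference was 1.24 ± 0.35 for 5 µmol/kg minus saline, 1.03 ± 0.35 for 10 µmol/kg minus saline and −0.21 ± 0.35 for 10 minus 5 µmol/kg. By the other probe the same differences were 1.09 ± 0.50, 0.98 ± 0.50 and −0.11 ± 0.50. The saline arrays were themselves far apart, and the size of the difference depended on them. Against saline array 2 alone, which shared the acinar signal of the arrays at 5 µmol/kg, the brighter probe's difference was 0.77 at 5 µmol/kg and 0.56 at 10 µmol/kg. Against saline array 1 alone it was 1.71 and 1.5. The other probe had log2 levels of 7.55 and 9.11 on the saline arrays, against means of 9.42 at 5 µmol/kg and 9.31 at 10 µmol/kg.

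Uba7, the activating enzyme, followed neither pattern. It read 1611 and 1045 on the saline arrays, 814 and 1049 at 5 µmol/kg, and 1556 and 682 at 10 µmol/kg. The 2 arrays with little acinar signal, 1 saline and 1 at 10 µmol/kg, were the highest, and the groups overlapped in every comparison. The log2 difference was −0.48 ± 0.43 for 5 µmol/kg minus saline and 0.16 ± 0.43 for 10 minus 5 µmol/kg. The first of these was −0.17 without saline array 1, so between arrays of like acinar signal, and −0.79 without saline array 2. The second was 0.74 without array 2 at 10 µmol/kg and −0.43 without array 1 of that dose.

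**Figure D2:**
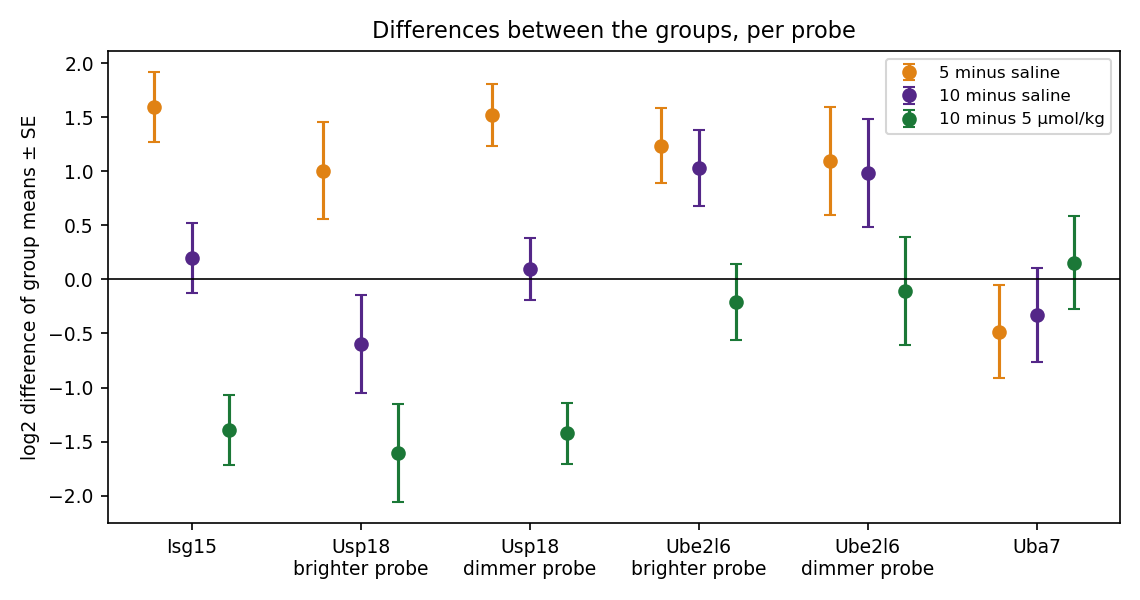
Log2 difference of group means (vertical axis) for each of the 6 probes in the 3 comparisons; points are differences and bars ± 1 SE from the fit to all 6 arrays. Both Usp18 probes and Isg15 lie below 0 for 10 minus 5 µmol/kg (−1.60, −1.42 and −1.40), whereas both Ube2l6 probes lie above 0 for either dose minus saline.

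For 10 µmol/kg against saline, Isg15 and Usp18 are again only described, because their low signals at 10 µmol/kg entered the choice, while Ube2l6 and Uba7 were tested. Isg15 differed by 0.20 ± 0.32 on the log2 scale. Usp18 differed by −0.60 ± 0.45, and by 0.10 ± 0.29 by its other probe, which is of opposite sign. Between the arrays with much acinar signal, 1 a group, the differences were −0.24 for Isg15 and −1.22 for Usp18, and between those with little they were 0.63 and 0.017. Neither Ube2l6 nor Uba7 passed, as no gene in the whole table did (0% of 13559 genes and probes at an adjusted p under 0.05 in limma's moderated test, with Benjamini-Hochberg adjustment). Ube2l6 differed by 1.03, or 2.04-fold (95% interval 0.20 to 1.87, unadjusted p = 0.0227, adjusted p = 1.0). At an unadjusted p under 0.05 the share of all genes was 1.63% (0.996% higher and 0.634% lower). Its unadjusted p was 0.117 without saline array 1 and 0.0903 without array 1 at 10 µmol/kg. Between the arrays with much acinar signal it differed by 0.42, and between those with little by 1.64. Read by the brighter probe of each gene, it was the 1 member of 4 with both arrays at 10 µmol/kg above both saline arrays, as 11% of all genes were, and the dimmer Usp18 probe also had no overlap, at signals near the lowest detected. Uba7 differed by −0.33 (−1.36 to 0.71, adjusted p = 1.0), and by −0.60 and −0.05 between the arrays with much and with little acinar signal. For 2 arrays against 2, an exact two-sided permutation test cannot go below p = 0.333.

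The background in the other comparisons was wide. Both arrays at 5 µmol/kg lay above both saline arrays for Isg15 and Ube2l6, 2 of 4 members, as they did for 21.8% of all genes. Both arrays at 10 µmol/kg lay below both at 5 µmol/kg for Isg15 and Usp18, 2 of 4, as they did for 15.7% of all. Both arrays at 5 µmol/kg lay above the 4 other arrays for Isg15 alone when each gene was read by 1 probe, as they did for 8.05% of all. Nothing is read from these 3 counts, because the genes were named for this pattern. At an adjusted p under 0.05, 0% of genes were called in either comparison. At an unadjusted p under 0.05 the share was 9.27% for 5 µmol/kg over saline (4.58% higher and 4.69% lower) and 0.959% between the doses (0.487% higher and 0.472% lower).

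Across the 6 arrays, which are few and share the acinar difference, the log2 levels of Isg15 and Usp18 had Pearson's r = 0.88, those of Isg15 and Ube2l6 0.74 and those of Usp18 and Ube2l6 0.44. Uba7 had r = −0.36 with Isg15, −0.20 with Usp18 and −0.44 with Ube2l6. Among 2630 other named genes that were detected on all arrays and ranged over at least 1 log2 unit, those most like Isg15 were Pigv, an enzyme of GPI anchor synthesis (r = 0.95), Ifit2 (0.95), Esco2, a cohesin acetyltransferase (0.93), the mitotic kinase Aurkb (0.90) and Oas1g (0.90). Those most like Usp18 were Ifit2 (0.93), Cmpk2 (0.91), the mitochondrial ribosomal protein Mrpl27 (0.89), Pno1, of ribosome assembly (0.88), and Oas1g (0.86). Ifit2, Oas1g and Cmpk2 are interferon-induced.

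The log2 levels of Ifit2, an RNA-binding antiviral protein, were 5.44 and 6.14 in saline, 6.32 and 6.95 at 5 µmol/kg, and 5.78 and 5.90 at 10 µmol/kg. Those of Oas1g, of the oligoadenylate synthetase family, were 5.43 and 5.38 in saline, 5.84 and 6.55 at 5 µmol/kg, and 5.44 and 5.21 at 10 µmol/kg. Both genes were highest on array 2 at 5 µmol/kg, as were Isg15 and Usp18. Cmpk2 was instead highest on saline array 2 (7.86, against 7.58 and 7.81 at 5 µmol/kg). Another Oas1g probe differed in the opposite direction at 5 µmol/kg against saline (−0.25) and at 10 against 5 µmol/kg (0.08). The third differed in the same direction in both (0.89 and −0.76). In these 2 comparisons Ifit2 differed by 0.85 and −0.79, and by less on its other probe (0.40 and −0.13). Aurkb read 7.11 and 8.02 in saline, 8.88 and 8.67 at 5 µmol/kg, and 7.82 and 8.06 at 10 µmol/kg, with array 1 the higher at 5 µmol/kg.

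Other genes of the ISG15 pathway were taken as a list of further ligases, proteases that act on ISG15, receptor chains and partners of Usp18. Of 21 named, 17 were measured above the filter. None passed in any comparison, and the median log2 difference was −0.17 for 5 µmol/kg minus saline, −9.7e-05 for 10 µmol/kg minus saline and 0.15 for 10 minus 5 µmol/kg, against −0.01, −0.02 and 0.0053 over all genes. The ligase Trim25 differed by −0.44 ± 0.35 at 5 µmol/kg and −0.15 ± 0.35 at 10 µmol/kg against saline. Herc4, a relative of Herc6, differed by −0.07 ± 0.23 and 0.09 ± 0.23. The LFA-1 chain Itgal differed by −0.13 ± 0.47 and −0.15 ± 0.47. Of the list, 2 members had an unadjusted p under 0.05 at 5 µmol/kg, both higher, where 4.58% of all genes were. They were the autophagy receptor Sqstm1 (0.65 ± 0.23) and Becn1, of autophagy initiation (1.40 ± 0.40), which 2 other probes put at −0.04 and −0.07. At 10 µmol/kg Sqstm1 was 0.69 ± 0.23 above saline. It was the only 1 of 17 with an unadjusted p under 0.05, where 0.996% of all genes were higher at such a p. Vcp, the member of highest signal, differed by −0.44 ± 0.25 and −0.08 ± 0.25.

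Genes upstream, of interferon signalling and the interferon regulatory factors, also gave no call. Of 27 named genes 22 were measured. Stat2 and Ifnar2 are in the pathway list too. The list's median was −0.18 for 5 µmol/kg minus saline and 0.18 for 10 minus 5 µmol/kg, opposite in sign to Isg15 and Usp18. Its mean log2 levels were 7.95 and 7.74 in saline, 7.48 and 7.91 at 5 µmol/kg, and 7.87 and 7.82 at 10 µmol/kg. Array 1 at 5 µmol/kg was thus the lowest, while array 2 of that dose lay above both arrays at 10 µmol/kg. Irf9, an interferon regulatory factor, was the 1 of 22 with both arrays at 5 µmol/kg above the 4 others (4.55%, against 8.05% of all genes). Its signals were 306 and 238 in saline, 362 and 546 at 5 µmol/kg, and 287 and 262 at 10 µmol/kg, and its log2 difference was 0.69 ± 0.28 for 5 µmol/kg minus saline (0.67 by its other probe) and −0.67 ± 0.28 for 10 minus 5 µmol/kg. Irf7 read 43.9 and 49.5 in saline, 50.2 and 130 at 5 µmol/kg, and 56.5 and 41.8 at 10 µmol/kg, so that 1 array was far above the rest. Irf1 and Irf2, the members of highest signal, differed by −0.59 ± 0.42 and −0.37 ± 0.24 at 5 µmol/kg against saline. Besides Irf9, those with an unadjusted p under 0.05 at 5 µmol/kg against saline were the interferon gamma receptor chain Ifngr2 (−1.05 ± 0.37) and the regulatory factor Irf3 (−0.73 ± 0.29), each with at least 1 other probe of opposite sign, and at 10 µmol/kg against saline the kinase Jak2 (0.68 ± 0.27). These are 3 and 1 of 22 genes, where 9.27% and 1.63% of all genes had such a p. At 5 µmol/kg against saline, Stat2 differed by −0.18 ± 0.33 and the receptor chain Ifnar2 by −0.37 ± 0.23. For Ifnar2, 2 other probes differed in the opposite direction.

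Most probes for interferon genes were below detection. Of 36 probes for 20 genes, 6 were detected on at least 2 arrays and 27 on none. Ifnab had the highest signals by 1 probe, 45.5 and 78.1 in saline, 96.6 and 82.3 at 5 µmol/kg, and 72.7 and 92.4 at 10 µmol/kg. Its other probe was detected on 0 arrays, with a highest signal of 7.04. By the first probe saline array 1 was lowest and the doses overlapped. No member of this list had an unadjusted p under 0.05 in any comparison.

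The 51 other measured interferon-induced genes had differences whose direction between the doses rested on 1 array. For 10 minus 5 µmol/kg, 12 of 51 lay above 0, where 50.8% of all genes did, and 39 below, with a median of −0.25 against 0.0053. Without array 2 at 5 µmol/kg, 25 of 51 lay below 0 and the median was 0.03. For 5 µmol/kg minus saline 32 of 51 lay above 0, where 48.7% of all genes did, and 22 of 51 without that array. For 10 µmol/kg minus saline, 16 of 51 lay above 0, where 46.9% of all genes did.

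No gene of this list passed in any comparison. At an unadjusted p under 0.05, 6 of 51 were higher and 1 lower at 5 µmol/kg than in saline, where 4.58% and 4.69% of all genes were. The first 4 by p were the galectin Lgals9 (log2 difference 0.99 ± 0.26), Ifi35 (0.99 ± 0.28), the ADP-ribosyltransferase relative Parp9 (−1.30 ± 0.44) and Oas1g (0.79 ± 0.30). Ifi35 read 40.8 and 27.3 in saline, 102 and 65.7 at 5 µmol/kg, and 37.2 and 37.7 at 10 µmol/kg, and it differed by −0.88 ± 0.28 between 10 and 5 µmol/kg. Its order over the groups was that of Isg15, but its higher array at 5 µmol/kg was array 1. Lgals9 read 107 and 72.5 in saline, 174 and 209 at 5 µmol/kg, and 146 and 165 at 10 µmol/kg. Both its doses lay above saline, as for Ube2l6. At 10 µmol/kg against saline, Ifi213 was lower (−1.13 ± 0.30) and Lgals9 higher (0.72 ± 0.26). They were the only ones of 51 with an unadjusted p under 0.05 there, where 0.634% of all genes were lower and 0.996% higher. Rsad2 and Ifitm3, the 2 of highest signal and both antiviral, differed by −0.19 ± 0.39 and 0.27 ± 0.28 at 5 µmol/kg and by −0.15 ± 0.39 and −0.01 ± 0.28 at 10 µmol/kg. In all, 6 of 51 genes (11.8%) had both arrays at 5 µmol/kg above the 4 others, against 8.05% of all. For 10 against 5 µmol/kg, 2 of 51 were lower and 0 higher at an unadjusted p under 0.05, where 0.472% and 0.487% of all genes were. Both arrays at 10 µmol/kg lay below both at 5 µmol/kg for 16 of 51, as they did for 15.7% of all.

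**Figure D3:**
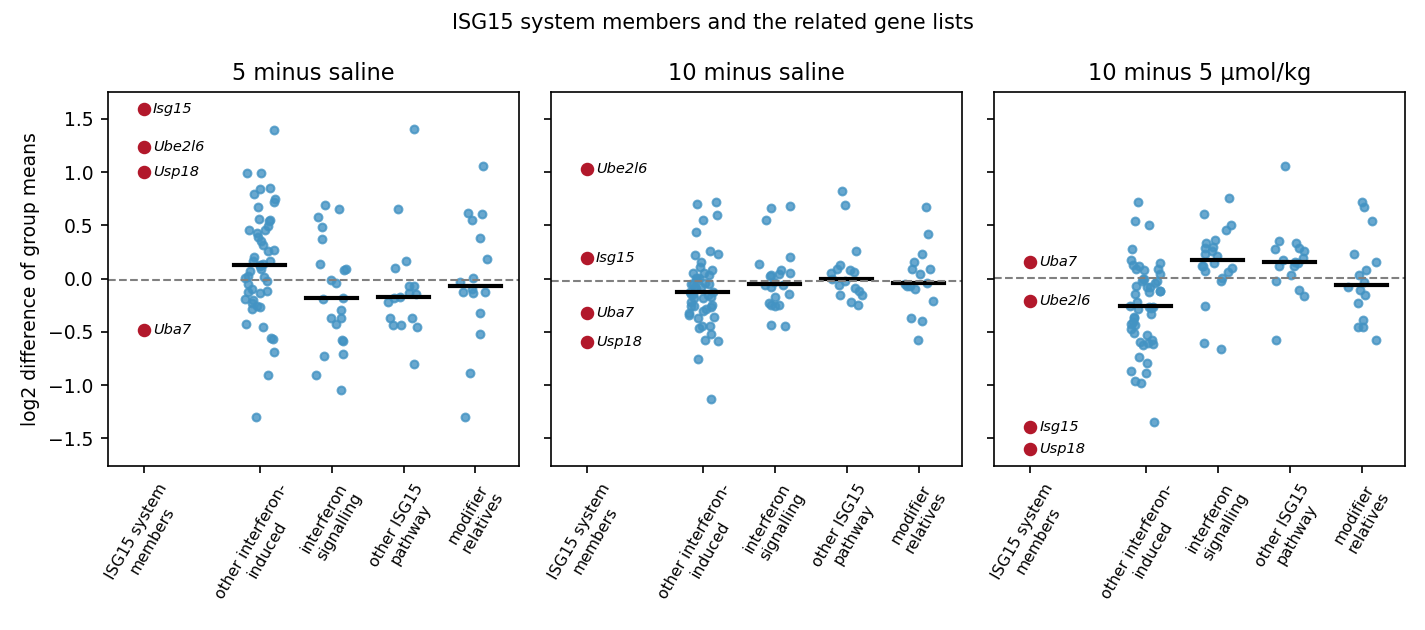
Log2 differences of group means (vertical axis) in the 3 comparisons for the 4 measured members (labelled) and for each gene of 4 related lists; black bars are list medians and the dashed line the median of all genes. Isg15 and Usp18 lie at −1.40 and −1.60 for 10 minus 5 µmol/kg. There the other interferon-induced genes have a median of −0.25 and the signalling genes one of 0.18. The mean log2 level of the signalling genes was 7.48 on array 1 and 7.91 on array 2 at 5 µmol/kg.

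Markers of the cells that a spleen holds also moved between the arrays, and in bulk tissue fewer cells of a type and less RNA per cell cannot be told apart. The 10 measured erythroid markers, all detected on all 6 arrays, had mean log2 levels of 10.49 and 10.90 in saline, 11.33 and 11.12 at 5 µmol/kg, and 11.07 and 10.73 at 10 µmol/kg, with the arrays at 5 µmol/kg highest as for Isg15. The list was split, with 6 markers above 0 and 4 below for 5 µmol/kg minus saline, and 3 above and 7 below for 10 minus 5 µmol/kg. Only 2 of 10 had both arrays at 5 µmol/kg above the 4 others (20%, against 8.05% of all genes). In these 2 comparisons the transporter Tspo2, picked after its values were seen, differed by 1.21 ± 0.31 and −1.56 ± 0.31, close to the differences of Isg15. Slc4a1 differed by −0.07 ± 0.23 and −0.03 ± 0.23. The 12 neutrophil and precursor markers, all detected on every array, had means of 9.82 and 9.46 in saline, 10.12 and 10.36 at 5 µmol/kg, and 10.01 and 10.40 at 10 µmol/kg, above saline at both doses as Ube2l6 was. The 12 monocyte and macrophage markers, of which at least 11 were detected on each array, had means of 8.49 and 8.59 in saline, 8.67 and 8.97 at 5 µmol/kg, and 8.92 and 9.25 at 10 µmol/kg. The 6 B cell markers had means of 8.87 and 8.68 in saline, 8.13 and 8.5 at 5 µmol/kg, and 8.37 and 8.29 at 10 µmol/kg, all cadmium arrays below both saline arrays. Probes disagreed for some of them. Against saline, Cd79b differed by −0.40 and −0.14 at 5 and 10 µmol/kg, and by 0.39 and 0.47 by its other probe. Fcer2a differed by 0.30 and −0.29, and its other probes by 0.91 and 0.86 at 5 µmol/kg and 0.49 and 0.65 at 10 µmol/kg. The other Cd22 probe went the same way as the first (−0.26 and −0.06). Markers of plasmacytoid dendritic cells, the main makers of type I interferon, had means of 6.71 and 7.15 in saline, 6.84 and 6.67 at 5 µmol/kg, and 6.46 and 7.19 at 10 µmol/kg, with 8 to 11 of 11 detected. The part of these cell types in the ISG15 system's values was not tested.

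**Figure D4:**
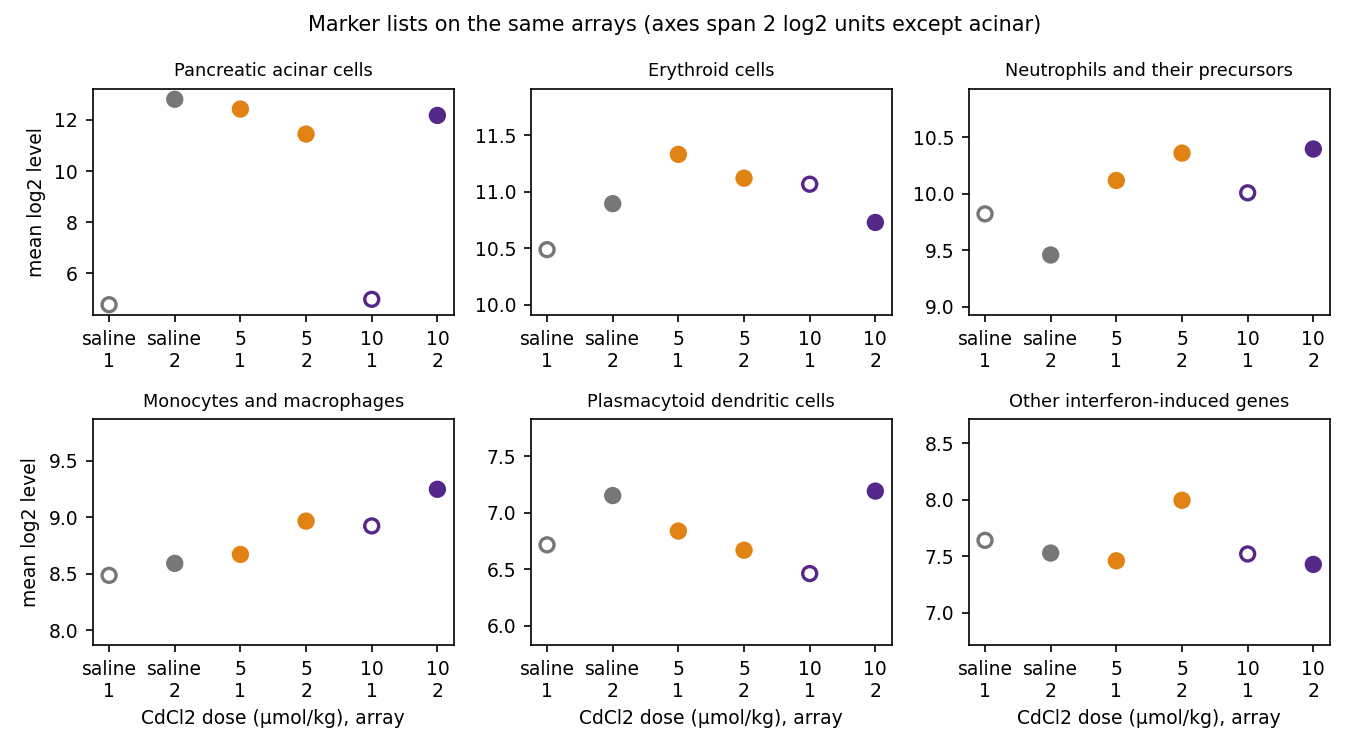
Mean log2 level of 5 marker lists and of the 51 other interferon-induced genes (vertical axes) on the 6 arrays, grouped by dose; open symbols are the 2 arrays with little acinar signal. The interferon-induced genes reach 8.00 on array 2 at 5 µmol/kg and lie between 7.43 and 7.64 elsewhere, whereas the acinar markers split the arrays at 4.78 and 4.99 against 11.45 to 12.81.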

How the data were processed

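Total RNA was labelled with biotin and hybridised to Illumina arrays, per the labels. The authors deposited a linear signal intensity and a detection p-value per probe and array, and a series matrix with identical values for 45279 of the 45281 probes. Intensities went down to −20.1 and the sorted arrays differed by at most 0.243, so the values look background-subtracted and quantile-normalized already, although no label or header states either step or its software. The log2 levels came from neqc (limma 3.58.1, R 4.3.3; offset 16), a method meant for raw signals. The offset understates changes of dim genes. A probe entered (18960 did) if 2 or more arrays had its detection p-value below 0.05, and the probe of highest mean stood for its gene. Symbols came from the platform annotation, checked against RefSeq (GRCm38.p6): 34885 probes had 1 symbol, 18 several and 10378 none.

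One limma model with 3 group means was fitted to all 6 arrays, with 3 residual and 3.64 prior degrees of freedom. A run on simulated data used independent normal noise without the acinar difference, so it does not show how the model behaves on these arrays. Members, lists and settings were chosen with earlier results of these data known. Lists were counted in full. The 2 members of highest mean signal, up to 4 by unadjusted p, and the 5 genes most correlated with Isg15 or Usp18 were named. Trim25, Herc4, Itgal, Stat2, Ifnar2, Irf7, Irf9, Slc4a1, Cd3e, Cr2 and Tspo2 were chosen after their values were seen or for their role. Cd79b, Fcer2a, Cd22, Siglech, Klk1b27, Ly6d and Pacsin1 were named for their further probes. The other settings changed background correction, normalization, offset, filter, probe choice, variance model and arrays, and added the replicate number or the acinar level to the model. The number of arrays limits the precision.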

Additional observations from a re-analysis of the deposited data

How the results depend on the processing

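No gene passed an adjusted p under 0.05 in limma's test in any of the 3 comparisons under the main setting or 20 of the 21 others. The exception was the fit to the 4 arrays with bright acinar markers, which has 1 saline array, 1 at 10 µmol/kg and 1 residual degree of freedom, so that all spread comes from the 2 arrays at 5 µmol/kg and the lone arrays are assumed to vary like them. It called 287 genes at 5 µmol/kg and 306 at 10 µmol/kg against saline, and 0 between the doses. The count at an unadjusted p under 0.05 was 1257, 221 and 130 for 5 µmol/kg against saline, 10 µmol/kg against saline and 10 against 5 µmol/kg. It ran from 161 to 2354, from 96 to 2131 and from 35 to 1271 over the alternatives. Leaving out 1 array, the Isg15 difference ran from 1.25 to 1.94 at 5 µmol/kg against saline and from −1.64 to −1.15 between the doses. For Usp18 these ranges were 0.47 to 1.54 and −2.08 to −1.13. At 10 µmol/kg against saline, where neither Uba7 nor Ube2l6 passed under any alternative, the leave-one-out ranges were −0.15 to 0.54 for Isg15, −1.14 to −0.06 for Usp18, −0.91 to 0.26 for Uba7 and 0.56 to 1.5 for Ube2l6, so that Isg15 changed sign without saline array 1 and Uba7 without array 2 at 10 µmol/kg. In this comparison Isg15 was −0.24, Usp18 −1.22, Uba7 −0.60 and Ube2l6 0.42 between the arrays with bright acinar markers, which are also those numbered 2, and 0.63, 0.017, −0.05 and 1.64 between the arrays with dim ones. At 5 µmol/kg against saline, Uba7 ran from −0.79 to −0.17 leaving out 1 array and was 0.0050 between the arrays numbered 2, and Ube2l6 ran from 0.77 to 1.71. The cause was not tested. With the replicate number as a block (replicate block), 0 genes were called in each comparison. Arrays of the same number did not deviate together throughout (correlations of −0.28, 0.58 and −0.11 between groups), so the numbers were not taken as pairs.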

Other observations

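Relatives of the ISG15 genes, of the ubiquitin, SUMO and NEDD8 families, were counted as a further list, of which 16 of 28 were measured. None passed in any comparison, and the median log2 difference was −0.07 for 5 µmol/kg minus saline, −0.05 for 10 µmol/kg minus saline and −0.06 for 10 minus 5 µmol/kg. Ube2l3, the ubiquitin-conjugating enzyme of the same subfamily as Ube2l6, read 943 and 873 at 5 µmol/kg, against 842 and 1130 in saline, and differed by −0.10 ± 0.25. Sumo3, a SUMO modifier, read 657 and 587 at 5 µmol/kg, against 340 and 247 in saline, with a log2 difference of 1.06 ± 0.33 (0.98 by its other probe). Uba6, a second activating enzyme of ubiquitin, differed by −1.30 ± 0.53 at 5 µmol/kg. Both had an unadjusted p under 0.05, where 9.27% of all genes had one. Nedd8 and Usp7, the relatives of highest signal, differed by 0.38 ± 0.22 and −0.53 ± 0.37, with another Usp7 probe opposite in sign.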
